A study of Mus musculus with 14 samples.

Results

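The genes described here encode the extracellular part of the Wnt pathway in mouse gastric and intestinal stem cells and organoids. They were chosen by symbol as every Wnt ligand, Frizzled receptor, Dickkopf antagonist, secreted Frizzled-related protein and R-spondin on the array, with no use of their levels. This gave 41 genes of the 18820 measured, namely 19 Wnt ligands, 10 Frizzled receptors, 4 Dickkopf antagonists, 4 secreted Frizzled-related proteins and 4 R-spondins, each read by 1 probe set.

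Wnt ligands are lipid-modified secreted proteins that bind Frizzled receptors together with the co-receptors Lrp5 and Lrp6. In the canonical branch this stabilises beta-catenin, which acts with TCF/LEF factors on target genes such as Axin2, while ligands such as Wnt5a are best known for beta-catenin-independent signalling. Dickkopf proteins such as Dkk1 block the Lrp co-receptors, secreted Frizzled-related proteins bind Wnts outside the cell, and R-spondins bind Lgr4 to Lgr6 and keep Frizzled receptors on the cell surface. In the intestinal crypt and the pyloric gland, Wnt signalling maintains the Lgr5-positive stem cells, and Paneth cells are the known epithelial source of Wnt3 in the small intestine.

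RNA of 14 samples, which form 7 groups, was hybridised to 1 array per sample. All organoids came from adult mice carrying 1 null and 1 floxed Cdx2 allele (Cdx2-/fl) and the Lgr5-EGFP-Ires-CreERT2 knock-in, in which EGFP and the tamoxifen-dependent Cre are made where Lgr5 is expressed, so the controls too had 1 functional Cdx2 copy at most. The homeobox factor Cdx2 is known as a regulator of intestinal identity. The stem cell (SC) samples were Lgr5-EGFP-high cells sorted from organoids of clonal origin and kept in the stomach type of medium. They were small intestinal SCs whose floxed allele was recombined with 4-hydroxytamoxifen (Cdx2null SI SCs, n = 2), untreated stomach SCs (control Sto SCs, n = 2) and untreated small intestinal SCs (control SI SCs, n = 3). The paper states this medium for 2 samples of each SC type, fewer than the 3 control SI SC samples here. Whole organoids grew in Sto medium (Sto organoids n = 1, SI organoids n = 1), which holds EGF, Noggin, R-spondin1, Fgf10, gastrin and Wnt3a conditioned medium, or in SI medium (Sto organoids n = 2, SI organoids n = 3), which holds EGF, Noggin and R-spondin1. Wnt was thus added from outside only in Sto medium, and the change of medium also changed Fgf10 and gastrin. Whether samples of a group came from separate animals was not given, so p-values measure the spread between these samples. In bulk samples, fewer cells of a type and less RNA per cell cannot be told apart.

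Some arrays stood apart or went against their labels. The library labelled SI organoids in SI medium 1 had a mean level of 9 gastric identity genes of 10.69, against 6.19 and 5.28 in SI organoids in SI medium 2 and 3, and a mean of 9 intestinal identity genes of 5.27, against 10.35 and 10.48. The main organoid results are therefore given with and without this library, called the doubtful library where its name would be repeated. The library labelled Cdx2null SI SCs 1 had Cdx2 at 8.41, against 4.88 in Cdx2null SI SCs 2, and the gastric factor Sox2 at 3.68, against 9.83, although its gastric identity mean of 10.14 was close to the 11.06 of the other. In control Sto SCs Cdx2 was at 5.08 and 4.67 and in control SI SCs at 9.04, 10.05 and 8.94, so in Cdx2 this library lay nearer to control SI SCs and against its label. The probe sets for Cdx2 include the part of the gene left after the deletion. The mean of the 9 intestinal identity genes, Cdx2 among them, was 5.95 in the library labelled Cdx2null SI SCs 1. It was 5.17 in Cdx2null SI SCs 2 and 8.80, 9.56 and 8.35 in control SI SCs, so in this mean the library lay with its label. SI organoids in SI medium 3 and control SI SCs 3 were exported with rounded values and had upper quartiles of 7.57 and 7.50, against 7.79 to 7.90 on the other 12 arrays. Control SI SCs 1 and 3 were male by Xist and Kdm5d, while the other 5 SC arrays were female. Sto organoids in Sto medium were male and all other organoid arrays female, so within Sto organoids sex and medium cannot be told apart. The 6 epithelial markers, Epcam among them, averaged 11.52 to 12.03 on all 14 arrays, while 15 mesenchymal markers averaged 4.05 to 4.36 and 6 endothelial markers 3.71 to 4.00.

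Values below are robust multi-array average (RMA) signals on the log2 scale, where a difference of 1 is 2-fold. Probe sets bind with different strength, so levels are compared between samples and not between genes, and the median of an array (4.72 to 5.05) serves only as a rough mark of low signal. Of the 41 genes, 6 were above the array median on all 14 arrays, 17 on some arrays and 18 on none. The 6 were all receptors, namely Fzd1, Fzd4, Fzd5, Fzd6, Fzd7 and Fzd8. The mean over all arrays lay above the overall median of 4.87 for 9 of 10 Frizzled receptors, for 4 of 19 Wnt ligands (Wnt4, Wnt7a, Wnt7b and Wnt10a) and for no Dickkopf, secreted Frizzled-related or R-spondin gene. The 18 genes that stayed under the median everywhere had values of 3.07 to 4.87 and moved little, with a median range over arrays of 0.63.

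**Figure D1:**
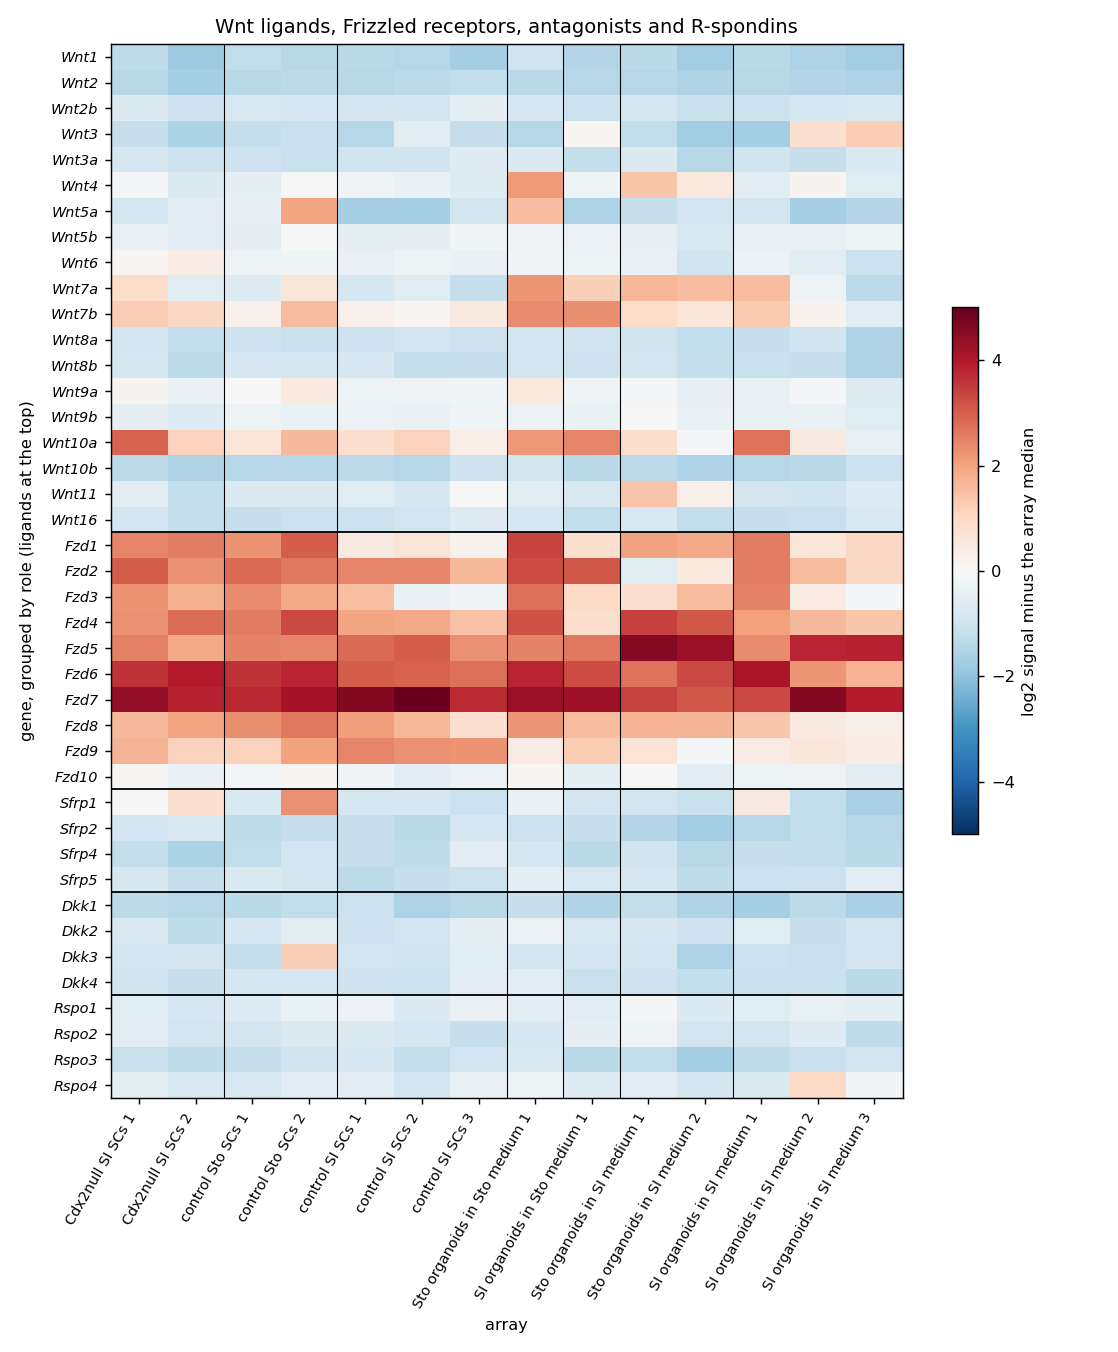
Level of the 41 genes (rows, grouped by role) on each of 14 arrays (columns), as log2 signal minus the median of that array, with red above and blue below it. Colours are to be read along a row. Receptors are mostly red on every array, while the ligands, antagonists and R-spondins are mostly blue, with patches such as Wnt3 in SI organoids in SI medium 2 and 3.

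Promoter sequences were taken from RefSeq (GRCm38.p6), as 250 bases before to 50 bases after an annotated start, and 27 of the 41 genes had one (30 promoters). The 4 below belong to genes called in at least 1 of the comparisons described here, chosen after their values were seen (Fzd1, Fzd5, Wnt3 and Wnt11, the last at the first of its listed starts). Fzd4, Fzd9 and Wnt4 were also called and have a promoter in the table that is not shown. The sequences are printed with the core letters of the TCF/LEF motif, CTTTGA or TCAAAG on the other strand, in capitals. They are read 5′ to 3′ on the strand of the gene: Fzd1 at chr5:4758167-4758466 (minus), Fzd5 at chr1:64737701-64738000 (minus), Wnt3 at chr11:103773925-103774224 (plus) and Wnt11 at chr7:98834862-98835161 (plus).
Fzd1: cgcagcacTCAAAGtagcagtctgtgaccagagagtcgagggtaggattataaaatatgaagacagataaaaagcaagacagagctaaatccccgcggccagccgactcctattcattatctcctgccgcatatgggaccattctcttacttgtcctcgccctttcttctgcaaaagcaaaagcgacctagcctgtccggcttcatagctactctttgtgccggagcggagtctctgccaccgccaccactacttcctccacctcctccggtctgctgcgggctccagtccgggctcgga
Fzd5: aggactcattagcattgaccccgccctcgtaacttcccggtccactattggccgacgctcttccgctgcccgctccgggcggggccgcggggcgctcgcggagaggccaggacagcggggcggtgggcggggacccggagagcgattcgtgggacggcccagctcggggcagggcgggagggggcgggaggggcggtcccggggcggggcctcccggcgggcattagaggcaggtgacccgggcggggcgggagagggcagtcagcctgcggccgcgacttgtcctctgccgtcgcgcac
Wnt3: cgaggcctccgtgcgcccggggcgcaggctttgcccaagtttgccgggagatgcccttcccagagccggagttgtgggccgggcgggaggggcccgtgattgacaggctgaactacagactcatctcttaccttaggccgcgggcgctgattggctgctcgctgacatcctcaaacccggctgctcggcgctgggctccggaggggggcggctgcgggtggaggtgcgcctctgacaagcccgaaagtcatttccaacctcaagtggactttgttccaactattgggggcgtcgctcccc
Wnt11: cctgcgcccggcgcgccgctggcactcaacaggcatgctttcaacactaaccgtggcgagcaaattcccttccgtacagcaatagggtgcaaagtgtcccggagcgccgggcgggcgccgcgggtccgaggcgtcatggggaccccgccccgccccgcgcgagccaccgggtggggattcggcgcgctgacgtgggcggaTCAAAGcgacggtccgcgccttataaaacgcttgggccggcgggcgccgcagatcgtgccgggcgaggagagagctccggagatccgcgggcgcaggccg
Fzd1 and Wnt11 each hold the TCF/LEF letters once, starting at position -242 and -50 from the start site. Over the whole set, 4 of 30 promoters (13.3%) held these letters, against 16% of 32851 promoters of the same length. The CDX core TTTATG, or CATAAA, was in 2 of 30 (6.67%), against 11.9% of all promoters, and in none of the 4 shown. The promoters of the set had a median GC content of 69.8%, against 52.7% over all promoters. A match of letters is a description and not a binding site.

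The first comparison, of Cdx2null SI SCs against control SI SCs, asks which of these genes differed in stem cells after loss of Cdx2. Fzd1, a receptor of the canonical branch, rose 4.62-fold and was the 1 of 41 genes called (limma adjusted p under 0.05 and at least 2-fold), against 287 of 18820 genes (1.52%). Fzd1 was at 7.28 and 7.62 in Cdx2null SI SCs, against 5.33, 5.51 and 4.89 in control SI SCs. Both Cdx2null arrays lay far above all 3 control arrays (difference 2.21, SE 0.27, adjusted p = 0.0119). The same receptor separated the organs. In control Sto SCs Fzd1 was at 7.14 and 7.81, which is 4.70-fold above control SI SCs (2.23, SE 0.27, adjusted p = 0.0089), and it was again the 1 gene of 41 called, against 538 of 18820 genes (2.86%). The comparisons with control SI SCs share those 3 arrays. Cdx2null SI SCs and control Sto SCs overlapped in Fzd1, with means of 7.45 ± 0.23 (SD, n = 2) and 7.47 ± 0.47 (n = 2).

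The Fzd1 calls rested on few arrays. The difference from control SI SCs was 2.37 (adjusted p = 0.035) without the library labelled Cdx2null SI SCs 1, 2.04 (adjusted p = 0.0916) without Cdx2null SI SCs 2, and 1.90 (adjusted p = 0.0566) for control Sto SCs without control Sto SCs 2, and with sex as a term it was 1.94 for Cdx2null SI SCs (adjusted p = 0.0876) and 1.97 for control Sto SCs (adjusted p = 0.0714).

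**Figure D2:**
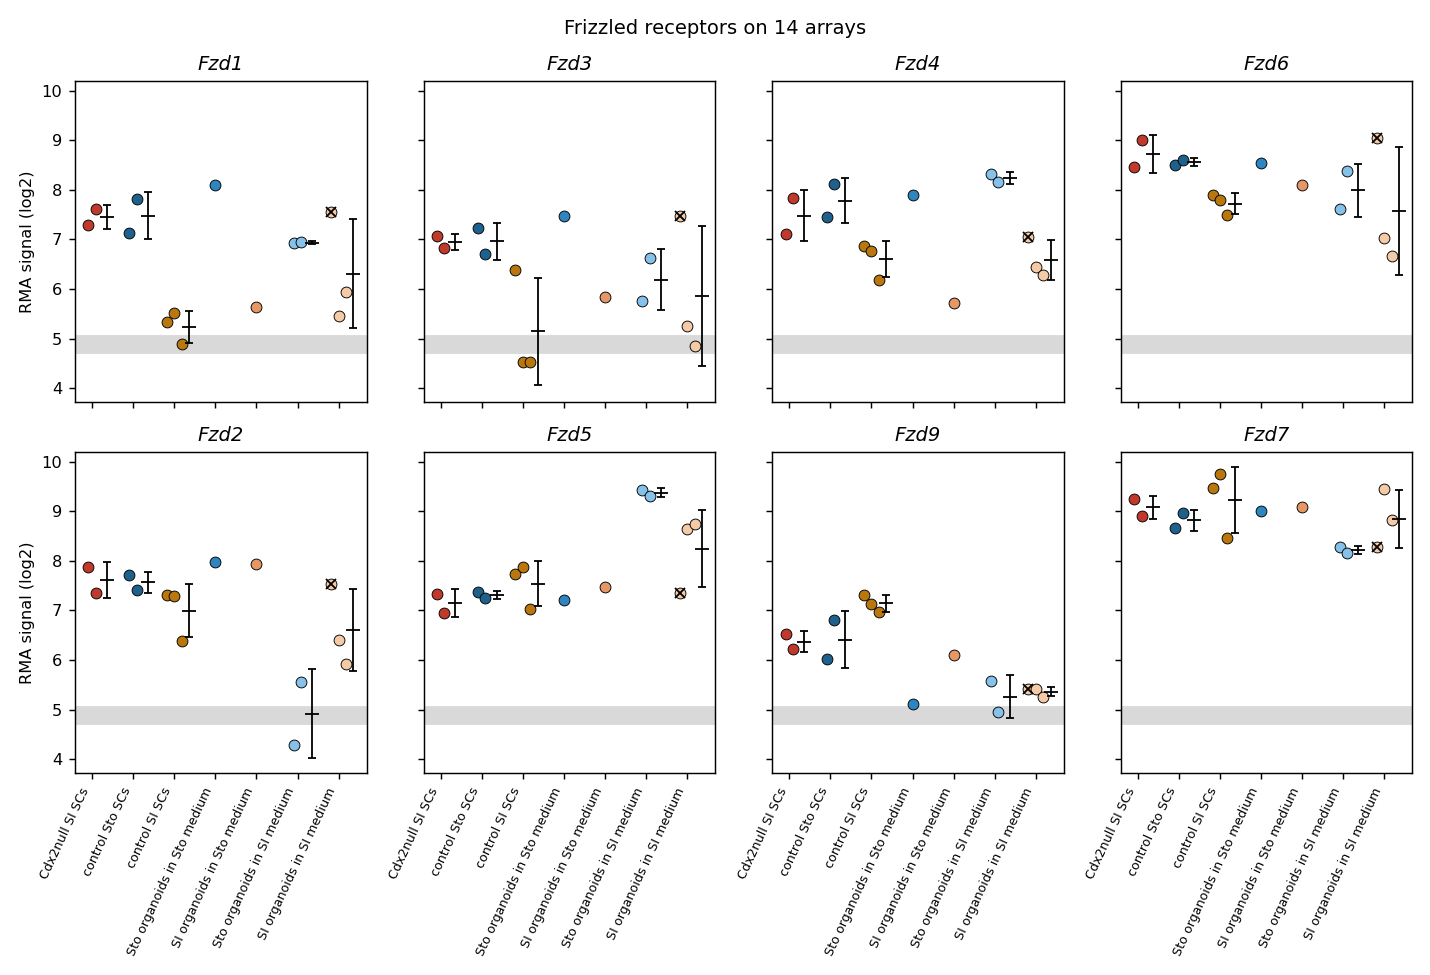
RMA signal (log2, y axis) of 8 Frizzled receptors in the 7 groups (x axis), 1 point per array, with black bars for mean and SD where a group has more than 1 array; the grey band spans the array medians and a cross marks the library labelled SI organoids in SI medium 1. Fzd1 lies at 7.14 to 7.81 in Cdx2null and control Sto SCs and at 4.89 to 5.51 in control SI SCs, and Fzd5 and Fzd2 move in opposite ways in Sto organoids in SI medium.

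Among the other receptors in stem cells, none passed the test. Fzd6, a receptor of the planar polarity pathway, was at 8.45 and 9.0 in Cdx2null SI SCs and 8.50 and 8.61 in control Sto SCs, against 7.90, 7.79 and 7.49 in control SI SCs. The groups did not overlap, and the difference was 1.00 (SE 0.21, adjusted p = 0.0859) for Cdx2null SI SCs and 0.83 (SE 0.21, adjusted p = 0.0959) for control Sto SCs. Fzd3, known for its part in axon guidance and planar polarity, was at 7.07 and 6.83 in Cdx2null SI SCs and 7.22 and 6.70 in control Sto SCs, against 6.39, 4.52 and 4.53 in control SI SCs. Control SI SCs 1 lay close to the other groups here. Without it Fzd3 was called in both comparisons, but the array left out was the control nearest to the other groups, so this adds no support. Fzd4, the receptor that the eye ligand norrin also uses, was at 7.11 and 7.84 in Cdx2null SI SCs and 7.46 and 8.11 in control Sto SCs, against 6.87, 6.77 and 6.18 in control SI SCs (adjusted p = 0.342 and 0.121). Fzd9 leaned the other way, at 6.53 and 6.22 in Cdx2null SI SCs and 6.01 and 6.81 in control Sto SCs, against 7.32, 7.13 and 6.98 in control SI SCs (differences -0.77, adjusted p = 0.277, and -0.73, adjusted p = 0.218). Fzd2, Fzd5, Fzd7, Fzd8 and Fzd10 differed by at most 0.98, the value of Fzd8 for control Sto SCs against control SI SCs (adjusted p = 0.307). Fzd7, a receptor that intestinal stem cells are known to use, was at 9.24 and 8.91 in Cdx2null SI SCs and 8.66 and 8.97 in control Sto SCs, against 9.46, 9.75 and 8.47 in control SI SCs, with the groups overlapping.

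No ligand passed the test in stem cells either. Wnt7b, a canonical ligand of epithelia, was at 6.10 and 6.09 in Cdx2null SI SCs, against 5.12, 4.97 and 5.19 in control SI SCs (1.00, SE 0.33, adjusted p = 0.277), and at 5.13 and 6.38 in control Sto SCs. Wnt10a, a canonical ligand of skin and tooth, was at 7.77 and 6.19 in Cdx2null SI SCs and 5.52 and 6.43 in control Sto SCs, against 5.72, 6.02 and 5.06 in control SI SCs (1.38 for Cdx2null SI SCs, adjusted p = 0.352). Wnt7a was at 5.74 and 4.46 in Cdx2null SI SCs and 4.24 and 5.39 in control Sto SCs, against 4.01, 4.26 and 3.58 in control SI SCs (1.15 for Cdx2null SI SCs, adjusted p = 0.405). For Wnt10a and Wnt7a the library labelled Cdx2null SI SCs 1 was the higher of its pair by more than 1 on the log2 scale. Wnt4 stayed between 4.08 and 4.77 in all 7 SC arrays.

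Counted without a test, 7 of 41 genes (17.1%) had Cdx2null SI SC arrays that did not overlap control SI SC arrays and means at least 2-fold apart, against 4.58% of all genes. All 7 were higher in Cdx2null SI SCs (Fzd1, Fzd3, Fzd6, Wnt7a, Wnt7b, Wnt10a and the antagonist Sfrp1), where 2.9% of all genes were. For control Sto SCs against control SI SCs it was 5 of 41 (12.2%), all higher in control Sto SCs (Fzd1, Fzd3, Fzd4, Wnt5a and Sfrp1), against 6.25% of all genes in either direction and 4.34% higher. The median difference over the 41 genes was 0.06 for Cdx2null SI SCs and 0.12 for control Sto SCs, beside 0.03 for both over all genes.

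Wnt5a, Sfrp1 and Dkk3 were uneven among the stem cell arrays. In control Sto SCs, Wnt5a was at 4.48 and 6.79, against 3.22, 3.20 and 3.80 in control SI SCs (2.23, SE 0.61, adjusted p = 0.121). The Wnt-binding antagonist Sfrp1 was at 4.10 and 7.10 in control Sto SCs, against 4.03, 4.03 and 3.64 in control SI SCs (1.70, adjusted p = 0.381), and at 4.82 and 5.86 in Cdx2null SI SCs. The Dickkopf relative Dkk3, which is not known as a strong Wnt antagonist, was at 3.69 and 6.0 in control Sto SCs, while the other 12 arrays lay between 3.50 and 4.12. In all 3 genes control Sto SCs 2 was the high array. Leaving out control Sto SCs 1 left the group with that high array alone, with Wnt5a then at a difference of 3.38. Nothing is concluded from that fit. The mean of the 15 mesenchymal markers was 4.31 and 4.14 in control Sto SCs, with 3 of 15 above the array median on each array, against 4.14 to 4.25 in control SI SCs. The part of other cells in these values was not tested.

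Cdx2null SI SCs against control Sto SCs asks where converted cells still differed from stomach cells. No gene of the 41 was called by limma or by the methods' t-test, and over 18820 genes limma called 0 (0%) and the methods' t-test 15, with 1 of the 41 and 286 of all genes at an unadjusted p under 0.05. The 1 was Wnt6, an epithelial ligand, at 4.95 and 5.40 in Cdx2null SI SCs, against 4.61 and 4.60 in control Sto SCs. With 2 arrays a group this does not show that the cells were alike. Wnt5a differed by -1.43 (SE 0.67) and Wnt10a by 1.00 (SE 0.57).

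Sto organoids against SI organoids, with medium as a second term, asks whether the organs differed as whole organoids. With all 7 arrays limma called 0 of the 41 genes and 0 of 18820 (0%), with 4 of the 41 and 2595 of all genes at an unadjusted p under 0.05. The methods' t-test was run only on the organoids in SI medium, the doubtful library included and without a term for medium. It called Fzd4, Wnt4 and Wnt11 before adjustment, where it called 1022 of all genes, and none after it. It thus says nothing on organoids in Sto medium, where Wnt11 was at 4.11 in Sto organoids and 4.05 in SI organoids. Without the library labelled SI organoids in SI medium 1, Fzd4 was higher and Wnt3 lower in Sto organoids, 2 of 41 genes, against 371 of 18820 (1.97%). Fzd4 was at 7.89 in Sto organoids in Sto medium and 8.32 and 8.16 in SI medium, against 5.71 in SI organoids in Sto medium and 7.05, 6.45 and 6.28 in SI medium. No array of one organ reached the other, and 7.05 belonged to the doubtful library (1.98, SE 0.15, adjusted p = 0.0055 without it, and 1.81, SE 0.23, adjusted p = 0.231 with it).

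Wnt3, the Paneth cell ligand, was at 3.30 in Sto organoids in Sto medium and 3.67 and 3.30 in SI medium, against 4.94 in SI organoids in Sto medium and 5.63 and 6.12 in SI organoids in SI medium 2 and 3. The library labelled SI organoids in SI medium 1 was at 3.30, inside the range of the Sto organoids. Without it Wnt3 was 4.42-fold lower in Sto organoids (-2.14, SE 0.25, adjusted p = 0.0206), and with it the difference was -1.57 (SE 0.68, adjusted p = 0.379). The 8 measured Paneth markers averaged 7.49 in Sto organoids in Sto medium and 4.97 and 5.47 in SI medium, against 9.94 in SI organoids in Sto medium and 9.85 and 10.10 in SI organoids in SI medium 2 and 3, and 6.23 in the doubtful library. Of the 8 markers, 6 (Lyz1, Defa24, Ang4, Mmp7, Itln1 and Spink4) were lower on every Sto organoid array than on those SI organoid arrays. Pla2g2a, at 10.86 in Sto organoids in Sto medium and 3.84 and 3.60 in SI medium, against 7.80 to 8.0 in those SI organoids, and Habp2 overlapped. The part of Paneth cells in the Wnt3 result was not tested.

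Other members leaned toward the stomach. Wnt4, a ligand of kidney and gonad development, was at 6.87 in Sto organoids in Sto medium and 6.26 and 5.54 in SI medium, against 4.62 in SI organoids in Sto medium and 4.40, 4.95 and 4.30 in SI medium (1.62, SE 0.30, adjusted p = 0.251; 1.60, SE 0.33, adjusted p = 0.0903 without the doubtful library). Fzd1 was at 8.10 in Sto organoids in Sto medium and 6.92 and 6.95 in SI medium, against 5.63 in SI organoids in Sto medium and 7.55, 5.45 and 5.94 in SI medium. The value of 7.55 was again that of the doubtful library, and without it the difference was 1.65 (SE 0.30, adjusted p = 0.0684), against 1.17 (SE 0.61, adjusted p = 0.442) with it. Wnt7a was at 6.91 in Sto organoids in Sto medium and 6.56 and 6.59 in SI medium, against 6.05 in SI organoids in Sto medium and 6.55, 4.58 and 3.60 in SI medium. Without that library, 7 of 41 genes (17.1%) had organs that did not overlap and lay at least 2-fold apart, against 7.08% of all genes, and Wnt3 was the 1 of them lower in Sto organoids. With it the count was 3 of 41 (7.32%), against 2.76% of all genes.

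**Figure D3:**
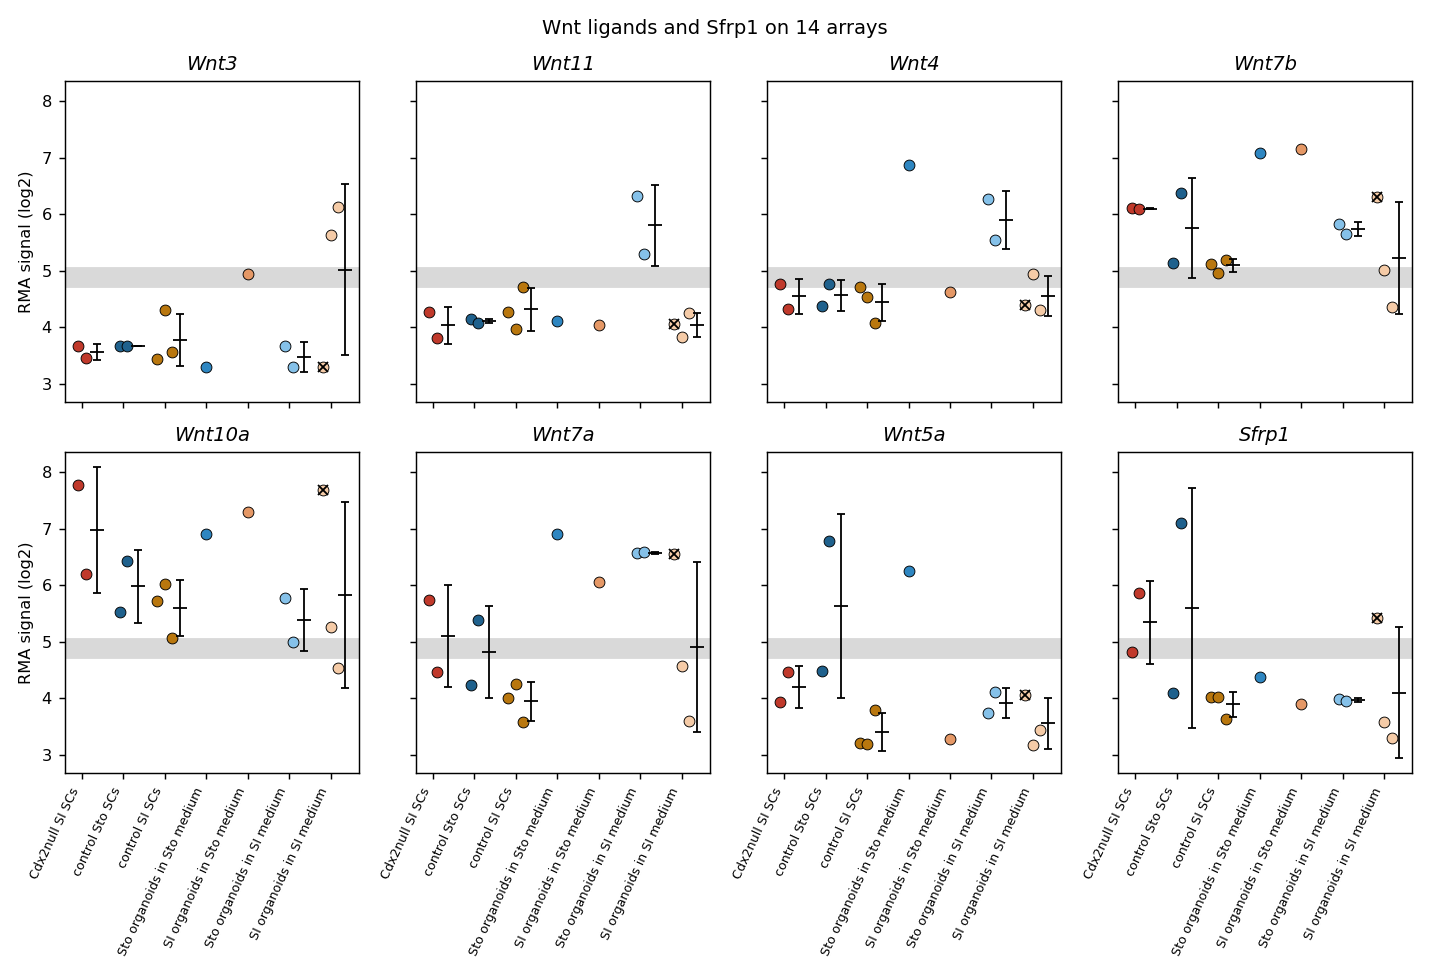
RMA signal (log2, y axis) of 7 Wnt ligands and Sfrp1 in the 7 groups (x axis), 1 point per array, with black bars for mean and SD where a group has more than 1 array; the grey band spans the array medians and a cross marks the library labelled SI organoids in SI medium 1. Wnt3 lies above the band in SI organoids in SI medium 2 and 3 and Wnt11 in both Sto organoids in SI medium, while Wnt7b is at 7.09 and 7.15 in the organoids in Sto medium.

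The medium comparison asks what the Wnt-containing Sto medium changed. In the fit over both origins limma called 0 of 41 and 0 of 18820 genes (0%), with 4 of the 41 and 1816 of all genes at an unadjusted p under 0.05, and without the library labelled SI organoids in SI medium 1 it again called 0 of 41, against 5 of 18820 (0.0266%). Sto medium was used for 1 array of each origin, so a test within an origin borrows the spread of the other groups. Within Sto organoids, Fzd2, a receptor that binds Wnt3a and Wnt5a, was at 7.98 in Sto medium, against 4.29 and 5.56 in SI medium (3.05, SE 0.70, adjusted p = 0.0512), and Fzd5 was at 7.20 in Sto medium, against 9.43 and 9.32 in SI medium (-2.17, SE 0.54, adjusted p = 0.0718). Fzd5, a receptor required in intestinal crypts for Paneth cell maturation, and Fzd2 thus moved in opposite directions. With all arrays none of the 41 genes passed, against 549 of 18820 (2.92%). Without the library labelled SI organoids in SI medium 1, whose values are not part of this difference but of its estimated spread, both receptors were called, against 1051 of 18820 genes (5.58%): Fzd2 rose 8.30-fold in Sto medium (SE 0.54, adjusted p = 0.0115) and Fzd5 fell 4.50-fold (SE 0.33, adjusted p = 0.0053). The array in Sto medium was also the male one.

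In SI organoids the same receptors were at 7.93 (Fzd2) and 7.48 (Fzd5) in Sto medium, against 7.53, 6.40 and 5.92 (Fzd2) and 7.35, 8.65 and 8.73 (Fzd5) in SI medium. The first value of each set came from the doubtful library. With it the differences were 1.32 (SE 0.66, adjusted p = 0.728) for Fzd2 and -0.76 (SE 0.51, adjusted p = 0.816) for Fzd5, and without it 1.77 (SE 0.54, adjusted p = 0.122) and -1.21 (SE 0.33, adjusted p = 0.0836). The response to the medium was also compared between origins. No gene of the 41 was called there, with all arrays (38 of 18820 genes, 0.202%) or without that library (523 of 18820, 2.78%), and Fzd5 differed by -0.96 (SE 0.46, adjusted p = 0.382) without it, so a stronger response in Sto organoids was not shown.

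Of the ligands, Wnt7b was called by medium within SI organoids, and only without the doubtful library. It was at 7.15 in SI organoids in Sto medium, against 6.30, 5.02 and 4.36 in SI medium, while in Sto organoids it was at 7.09 in Sto medium, against 5.82 and 5.65 in SI medium. Without the doubtful library (6.30) it was the 1 of 41 genes called within SI organoids, 5.53-fold higher in Sto medium (2.47, SE 0.44, adjusted p = 0.0163), against 663 of 18820 genes (3.52%). With it no member was called, against 1 of 18820 genes (0.00531%), and Wnt7b differed by 1.93 (SE 0.64, adjusted p = 0.587). Wnt10a was at 7.29 in SI organoids in Sto medium, against 7.69, 5.27 and 4.54 in SI medium, while in Sto organoids it was at 6.91 in Sto medium, against 5.77 and 5.0 in SI medium. Over both origins it differed by 1.49 (SE 0.83, adjusted p = 0.653), and without the doubtful library by 1.95 (SE 0.36, adjusted p = 0.129). Wnt11, a ligand of the beta-catenin-independent branch in vertebrate embryos, was at 4.11 in Sto organoids in Sto medium, against 6.31 and 5.30 in SI medium (-1.70, SE 0.42, adjusted p = 0.0711, or 0.0502 without the doubtful library), and at 4.05 in SI organoids in Sto medium, against 4.06, 3.83 and 4.26 in SI medium. Only the Sto organoids in SI medium lay above the array medians in Wnt11. Wnt5a was at 6.25 in Sto organoids in Sto medium, against 3.74 and 4.11 in SI medium (2.32, SE 0.76, adjusted p = 0.173, or 0.106 without the doubtful library), and between 3.17 and 4.06 in all SI organoids.

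**Figure D4:**
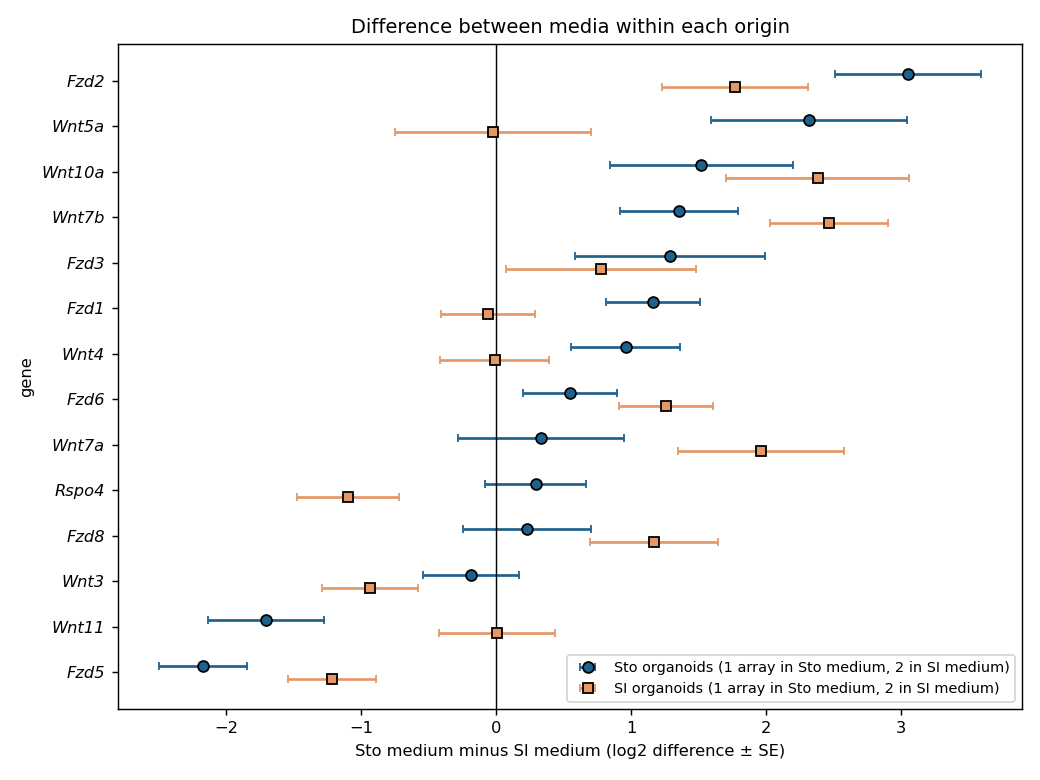
Difference between Sto medium and SI medium (log2, x axis, bars are SE) within Sto organoids (circles) and within SI organoids (squares), for the 14 genes of the 41 with the largest difference in either origin, without the library labelled SI organoids in SI medium 1. Fzd2 lies at 3.05 and 1.77 and Fzd5 at -2.17 and -1.21, while Wnt11 lies at -1.70 in Sto organoids and at 0.01 in SI organoids.

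The Sto organoids in SI medium also stood apart in other genes. The gastric pit markers Muc5ac, Gkn1, Gkn2 and Tff1 averaged 12.53 and 12.46 there, against 5.33 in Sto organoids in Sto medium and 5.71 and 5.85 in control Sto SCs. The stem cell receptor Lgr5 was at 4.20 and 4.32 and the Wnt target Axin2 at 4.06 and 4.22, against 9.29 and 7.37 in Sto organoids in Sto medium. What these shifts in cell type contribute to the Fzd2, Fzd5, Wnt11 and Wnt4 values was not tested.

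Control Sto SCs against Sto organoids in SI medium set sorted stem cells beside whole organoids grown without added Wnt. This comparison had the most calls, with 5 of 41 genes against 1135 of 18820 (6.03%), and combined sorting with a change of medium. Fzd2 and Fzd9 were higher and Fzd5, Wnt11 and Wnt4 lower in control Sto SCs. Fzd2 was at 7.72 and 7.42 in control Sto SCs, against 4.29 and 5.56 in Sto organoids in SI medium, a 6.26-fold difference (2.65, SE 0.57, adjusted p = 0.0232). Fzd5 was at 7.36 and 7.25 in control Sto SCs, against 9.43 and 9.32, 4.19-fold lower (-2.07, SE 0.44, adjusted p = 0.0223). Wnt11 was at 4.14 and 4.08 in control Sto SCs, against 6.31 and 5.30 (-1.69, SE 0.34, adjusted p = 0.0179), and Wnt4 at 4.38 and 4.76, against 6.26 and 5.54 (-1.34, SE 0.33, adjusted p = 0.0403). The Sto organoids in Sto medium, which were not sorted, lay beside the stem cells in Fzd2 (7.98), Fzd5 (7.20) and Wnt11 (4.11), and with the organoids in SI medium in Wnt4 (6.87). Counted without a test, 8 of 41 genes (19.5%) did not overlap and lay at least 2-fold apart, against 12.1% of all genes. All 5 were also called without the library labelled SI organoids in SI medium 1, against 1738 of 18820 genes (9.23%). That library entered only the estimated spread. None of the 5 was called without control Sto SCs 2 or without Sto organoids in SI medium 1. Fzd2, Wnt11 and Wnt4 were called without Sto organoids in SI medium 2, Fzd2, Fzd5 and Wnt11 without Cdx2null SI SCs 1 or 2 or control SI SCs 1 or 2, and Fzd9 without control Sto SCs 1.

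In the intestine, Fzd9 was the 1 of 41 genes called in control SI SCs against SI organoids in SI medium, beside 30 of 18820 genes (0.159%). Fzd9, a receptor known from bone and muscle, was at 7.32, 7.13 and 6.98 in control SI SCs, against 5.41, 5.41 and 5.27 in SI organoids in SI medium, 3.43-fold higher with no overlap (1.78, SE 0.23, adjusted p = 0.0299). In the stomach it was at 6.01 and 6.81 in control Sto SCs, against 5.57 and 4.96 in Sto organoids in SI medium (1.15, SE 0.28, adjusted p = 0.0403). In Sto medium the whole organoids were at 5.12 (Sto) and 6.11 (SI). The intestinal call was lost without any of control SI SCs 1 to 3 (adjusted p = 0.163, 0.0689 and 0.0891) or without SI organoids in SI medium 2 or 3 (adjusted p = 0.103 and 0.0756), while the difference stayed between 1.69 and 1.86. Without the library labelled SI organoids in SI medium 1 the genes called were Fzd9 (1.80, SE 0.26, adjusted p = 0.0031), Wnt3 (-2.10, SE 0.27, adjusted p = 0.0013) and Fzd5 (-1.15, SE 0.24, adjusted p = 0.0214), 3 of 41 against 961 of 18820 (5.11%). Without a test, 1 of 41 genes (2.44%) did not overlap and lay at least 2-fold apart, against 1.7% of all genes, and 5 (12.2%) against 7.08% without that library. Wnt3 was at 3.44, 4.30 and 3.57 in control SI SCs, against 5.63 and 6.12 in SI organoids in SI medium 2 and 3. Wnt3 thus stayed under the array median in all 3 sorted samples. The Paneth markers averaged 8.55, 9.16 and 8.87 in control SI SCs, against 9.85 and 10.10 in SI organoids in SI medium 2 and 3. This mean joins markers that went opposite ways. Lyz1, Defa24, Ang4, Itln1 and Spink4 were lower on every control SI SC array than on those organoid arrays. Mmp7 and Pla2g2a were higher, with Pla2g2a at 12.76, 12.44 and 12.55, against 7.86 and 7.80, and Habp2 overlapped.

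Sorted SCs against organoids in Sto medium compare the cell fractions within 1 medium, as far as the paper states it for the SCs, adjusted for origin. With all arrays 0 of 41 genes were called, against 8 of 18820 (0.0425%), with 4 of the 41 at an unadjusted p under 0.05 (Fzd9, Wnt4, Wnt7a and Wnt7b). Without the doubtful library Wnt7b was called, 3.24-fold lower in sorted SCs (-1.69, SE 0.30, adjusted p = 0.0471, against 0.277 with it), beside 93 of 18820 genes (0.494%). That library is in none of the groups compared here, so leaving it out changed the estimated spread and not the difference. Each organoid group held 1 array, so the spread came from the other groups. Wnt7b was at 5.13 and 6.38 in control Sto SCs and 5.12, 4.97 and 5.19 in control SI SCs, against 7.09 in Sto organoids and 7.15 in SI organoids in Sto medium. Wnt7a did not pass the test (-2.10, SE 0.69, adjusted p = 0.358, or SE 0.42, adjusted p = 0.0711 without the doubtful library), at 4.24 and 5.39 in control Sto SCs and 4.01, 4.26 and 3.58 in control SI SCs, against 6.91 and 6.05 in the organoids.

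Whether the difference between organs was the same in sorted SCs as in whole organoids in SI medium was tested directly. Sorting and medium differed together in this contrast, since the SCs were kept in the stomach type of medium. With all arrays 0 of 41 genes were called, against 159 of 18820 (0.845%), and 5 of the 41 had an unadjusted p under 0.05. Without the library labelled SI organoids in SI medium 1, Wnt11 and Wnt3 were called, 2 of 41 against 854 of 18820 (4.54%). The organ difference in Wnt11 was -1.97 (SE 0.47, adjusted p = 0.0496) and that in Wnt3 2.29 (SE 0.39, adjusted p = 0.0115) in sorted SCs relative to whole organoids. Wnt11 was low in stem cells of both organs and above the array median in Sto organoids in SI medium, and Wnt3 was low in stem cells of both organs and above it in SI organoids in SI medium 2 and 3. The unsorted organoids in Sto medium had Wnt11 at 4.11 (Sto) and 4.05 (SI), and Wnt3 at 3.30 (Sto) and 4.94 (SI).

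The remaining members were quiet. Rspo1, Rspo2 and Rspo3, the ligands of Lgr4 to Lgr6, lay between 3.37 and 4.84 on all arrays, under the array median everywhere. Rspo4, known from nail development, was at 5.79 and 4.77 in SI organoids in SI medium 2 and 3 and between 3.89 and 4.52 on the other 12 arrays, and differed in the comparison of control SI SCs with SI organoids in SI medium by -0.72 (SE 0.33, adjusted p = 0.554), or -1.07 (SE 0.28, adjusted p = 0.0553) without the doubtful library. Dkk1, Dkk2 and Dkk4 lay between 3.26 and 4.43, and Sfrp2, Sfrp4 and Sfrp5 between 3.30 and 4.33. Of the ligands, Wnt1, Wnt2, Wnt2b, Wnt3a, Wnt8a, Wnt8b, Wnt9b, Wnt10b and Wnt16 were under the array median on every array. Wnt3a, the ligand supplied in Sto medium, was at 4.05 and 3.64 in organoids in Sto medium, against 4.20 and 3.67 in Sto organoids and 4.00, 3.69 and 4.12 in SI organoids in SI medium. Fzd10 lay between 4.33 and 4.90 and Wnt9a between 4.24 and 5.25.

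Genes that act with these proteins were read beside them. The co-receptors Lrp5 and Lrp6 lay at 9.47 to 10.85 and 8.05 to 9.66, the Wnt receptor Ryk at 8.86 to 9.75 and the R-spondin receptor Lgr4 at 9.47 to 10.28. Of 12 co-receptor and R-spondin receptor genes, 0 were called in the comparisons of Cdx2null SI SCs or control Sto SCs with control SI SCs. Over all genes 1.52% and 2.86% were called there, so 0 calls in lists this short say little. In control Sto SCs, 2 of the 12 (Lgr5 and Ror2) were higher than in Sto organoids in SI medium, where 6.03% of all genes were called. The SCs were sorted on EGFP made where Lgr5 is expressed, so the sort itself selected for Lgr5. The median difference of the 12 genes from control SI SCs was 0.18 for Cdx2null SI SCs and 0.21 for control Sto SCs. Wls, which carries Wnts to the cell surface, was at 10.10 and 10.04 in Cdx2null SI SCs and 9.98 and 9.85 in control Sto SCs, against 9.32, 8.90 and 9.02 in control SI SCs. These groups did not overlap, and the differences of 0.99 (SE 0.17, adjusted p = 0.0387) and 0.84 (SE 0.17, adjusted p = 0.0468) were significant but under 2-fold. Porcn, the enzyme that lipid-modifies Wnts, was at 10.07 in Sto organoids in Sto medium and 10.59 and 10.57 in SI medium, against 9.23 in SI organoids in Sto medium and 9.15, 7.82 and 6.30 in SI medium (2.24, SE 0.74, adjusted p = 0.303; 2.62, SE 0.67, adjusted p = 0.128 without the doubtful library). Of 14 other secreted or surface modulators, 0 were called in either comparison with control SI SCs, and the antagonists Frzb and Wif1 lay at 2.86 to 3.23 and 3.15 to 3.57. Of 23 intracellular transducers and 16 Wnt target genes, 0 were called in either of those comparisons. In control Sto SCs, 4 transducers (Axin2, Bcl9, Rnf43 and Znrf3) and 8 targets (Axin2, Rnf43, Znrf3, Ascl2, Cd44, Lgr5, Nkd1 and Tnfrsf19) were higher and 0 lower than in Sto organoids in SI medium, against 6.03% of all genes called. Lgr5 is again the gene of the sort, and genes that go with Lgr5 in stem cells may be selected with it. Within Sto organoids, 4 of the 16 targets (Ascl2, Axin2, Lgr5 and Rnf43) were higher in Sto medium than in SI medium and 0 lower, with a median difference over the list of 1.71, beside -0.01 over all genes. Axin2, Rnf43 and Znrf3 are in both lists. The lists and the comparisons share genes and arrays with the members above.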

How the data were processed

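Affymetrix Mouse Gene ST 1.1 arrays were hybridised with RNA of 14 samples. The authors normalised the arrays with the RMA-sketch algorithm of Affymetrix Power Tools and deposited log2 signals of 35556 probe sets. The log2 values deposited for SI organoids in SI medium 3 and control SI SCs 3 came from rounded linear values, and whether they were normalised with the other 12 arrays was not given in the sources used here. Precision is limited by how few arrays there are.

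Of the probe sets, 21218 had 1 gene symbol, 1881 several and 12457 none, and 21185 of the 21218 symbols matched RefSeq. The probe set with the highest mean represented each of 18820 genes. Differences were fitted with limma 3.58.1 in R 4.3.3 (lmFit and eBayes) and adjusted over 18820 genes by the Benjamini-Hochberg method. A gene was called at an adjusted p under 0.05 and a difference of at least 2-fold. The comparisons among SCs used the 7 SC arrays, those of origin and medium the 7 organoid arrays with both terms, and the rest all 14 arrays with group means. The fits were tested on simulated data.

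Members called in any comparison, and members whose mean was above the median of all probe sets and arrays, were described with the value of each array, and the others by range, by a rule written with the design. Wnt6, Sfrp1, Dkk3, Wnt3a, Wnt5a and Rspo4 were named further after their values were seen where they fell outside it. The members and the lists of pathway genes and cell type markers were chosen with earlier results of these data known. Alternatives were other normalisation, centring, probe set choice, filter, variance model, test, replicate block, sex term, sample sets and leaving out arrays.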

Additional observations from a re-analysis of the deposited data

Results flagged for a closer look

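The organ difference of Wnt3 and that of Wnt11 differed between sorted SCs and whole organoids in SI medium, by a direct test of the difference, once the library labelled SI organoids in SI medium 1 was left out. The test combined sorting with a change of medium, and the parts of each cannot be told apart. For Wnt3 the control Sto SCs minus control SI SCs difference exceeded the organoid difference by 2.29 on the log2 scale (SE 0.39, limma adjusted p = 0.0115). For Wnt11 the corresponding value was -1.97 (SE 0.47, adjusted p = 0.0496). With all arrays neither gene was called, and Wnt11 was also at -1.97 (SE 0.44, adjusted p = 0.0946). The size of the Wnt3 value depended more on that library. When single arrays were left out in turn, Wnt3 ran from 0.88 to 2.29, the highest being the value without that library. Wnt11 ran from -2.47 to -1.46.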

How the results depend on the processing

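None of the differences of single genes followed through the alternatives changed sign. With all alternatives that did not leave out single arrays, 248 of 281 values of single genes kept their side of the threshold, 22 lost the call and 11 gained it. A gene called in neither fit also counted as keeping its side. Most of the differences followed were not called with all arrays, so the 248 do not measure how stable the calls were. Leaving out 1 array moved the number of members called between 0 and 2 for Cdx2null SI SCs against control SI SCs, 0 and 4 for control Sto SCs against control SI SCs, 0 and 2 for Sto against SI organoids, 0 and 1 for sorted SCs against organoids in Sto medium, 0 and 3 for control SI SCs against SI organoids in SI medium, 0 and 5 for control Sto SCs against Sto organoids in SI medium and 0 and 2 for the difference between organ effects. It stayed at 0 for Cdx2null SI SCs against control Sto SCs and for the medium over both origins. Where a group was left with 1 array, that array was assumed to vary like the other groups.

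For Cdx2null SI SCs against control SI SCs the count was 2 in a fit of these groups alone (Wnt7b added), 0 with sex as a term, 4 by the methods' t-test (Fzd1, Fzd6, Sfrp1 and Wnt7b) and 0 by it after Benjamini-Hochberg adjustment. Wnt7b was also added without either control Sto SC array. For control Sto SCs against control SI SCs it was 2 with arrays centred on their medians (Fzd4 added), 2 by the t-test, 0 with sex as a term and 0 by the t-test after adjustment. The t-test, on the organoids in SI medium alone, gave 3 for Sto against SI organoids. For control SI SCs against SI organoids in SI medium the count was 0 without the 2 arrays exported differently, 0 in a fit of these groups alone and 0 by the adjusted t-test, and for control Sto SCs against Sto organoids in SI medium 1 by the t-test (Fzd5) and 0 after adjustment. Over all 18820 genes the t-test called 498, 828, 1022, 220 and 1510 in these 5 comparisons, in the order given, and 0 in each after adjustment. The medium counts within an origin, chosen after seeing the data, were 2 in Sto organoids and 1 in SI organoids without the library labelled SI organoids in SI medium 1.

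Same-numbered arrays correlated in their deviations from the group means at 0.377 for Cdx2null SI SCs and control Sto SCs. With 2 arrays in each of these groups, both replicate numbers give the same value by construction. The correlations were 0.0716 and 0.273 for Cdx2null SI SCs and control SI SCs, and 0.176 and 0.404 for control Sto SCs and control SI SCs. For organoids in SI medium they were -0.0577 and -0.0565. Not all were above 0.1 and nothing in the labels ties equal numbers together, so the samples were treated as unpaired. With the replicate block the counts of members called were 1 (Wnt11) for the difference between organ effects, 4 for control Sto SCs against Sto organoids in SI medium, without Fzd9, and as without the block elsewhere. Over all genes, the block raised the number at an unadjusted limma p under 0.05 from 2180 to 3081 for Cdx2null SI SCs against control SI SCs. For control Sto SCs against control SI SCs it rose from 2936 to 4100, and for Cdx2null SI SCs against control Sto SCs from 286 to 930. Genes called went from 287 to 228, 538 to 500 and 0 to 0. By Xist and Kdm5d, control SI SCs 1 was male, while Cdx2null SI SCs 1 and control Sto SCs 1 were female. Control SI SCs 1 thus did not share an animal with those arrays. Other forms of pairing of replicates were not excluded. With centred arrays the all-gene median was -0.10, beside 0.03 uncentred, for Cdx2null SI SCs against control SI SCs, -0.11, beside -0.01, for Cdx2null SI SCs against control Sto SCs, 0.16, beside 0.00, for the medium, and 0.13, beside -0.01, for control Sto SCs against Sto organoids in SI medium. The causes of these changes were not tested. Signals near the array medians, where most ligands and antagonists lay, limit what could be seen of them.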
